A study of Mus musculus with 6 samples.

Results

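A set of 30 genes that mark blood monocytes, monocyte-derived macrophages and the macrophages of the lung interstitium, with the receptors that let macrophages clear dying cells, was followed in cells washed from mouse airspaces (bronchoalveolar lavage, BALF). The genes were taken by symbol from a fixed list, and all 30 were among the 40564 genes of the deposited tables. Counting by role, 9 are monocyte genes, 13 are genes of interstitial and other tissue macrophages, 3 encode complement C1q, 3 serve efferocytosis and 2 are Fc receptors. Bulk RNA sequencing covered 3 genotypes with 2 libraries each, labelled Cis Stat6 KO (a double knockout), Cis KO and WT. The Cis Stat6 KO libraries lack CIS, the product of Cish, and STAT6, the Cis KO libraries lack CIS alone, and neither gene is targeted in WT. All cells were untreated and of the same batch. The age, sex and strain of the mice, the alleles, and whether the deletions act in all cells were not given in the sources used here. Nor do the labels say that the libraries of a genotype came from separate mice, so each p-value below measures only the spread between these libraries, which may be technical. The comparisons ask how the genes differ when CIS is lost, when STAT6 is lost on top of it, and when both are lost.

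The airspaces of a healthy lung are held by alveolar macrophages, long-lived cells seeded before birth that renew themselves in place. Monocytes from the blood, marked in the mouse by Ly6C and the chemokine receptor CCR2, enter the lung when it is injured or inflamed and can become macrophages there, whereas interstitial macrophages live in the tissue between airway, vessel and alveolus and carry markers such as LYVE1, FOLR2 and C1q. CIS belongs to the suppressor of cytokine signalling family and restrains STAT signalling below cytokine receptors, and STAT6 is the transcription factor that relays interleukin-4 and interleukin-13.

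The libraries held 50762354 to 65937118 counts, and 16765 genes had enough counts to be tested. Cish stood at 1.72 and 5.04 CPM (normalised read counts, scaled by library total and TMM factor) in Cis Stat6 KO, at 4.34 and 3.51 CPM in Cis KO and at 46.2 and 56.2 CPM in WT, and Stat6 stood at 31.6 and 25.5 CPM in Cis Stat6 KO, at 264 and 221 CPM in Cis KO and at 233 and 227 CPM in WT. All 14 alveolar macrophage markers examined were present in every library. The Cis KO replicate 2 library stood apart from the rest. It had a count for 15855 genes, against 19641 to 20431 in the other libraries, and the summed CPM of 7 erythroid markers was 38651 in it and 15.0 to 353 elsewhere. Its 11 B cell markers summed to 368 CPM, against 233 to 294 elsewhere, and to 123 CPM against 0.491 to 20.8 once Cd22, which every library carried, was set aside. Cd79b, a defining B cell gene, stood at 16.0 CPM in it and at 0 in Cis KO replicate 1 and in both WT libraries. Its 10 neutrophil markers summed to 821 CPM, against 280 and 302 in Cis Stat6 KO, 175 in Cis KO replicate 1, and 244 and 236 in WT. Where a member's value rests on this library, the log2 fold change without it is also given.

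Several receptors of the set and the secreted protein gene Selenop were abundant in the lavage cells of every genotype. Many genes that mark a recruited monocyte or an interstitial macrophage were low, and some of these were at or near 0. Of the 30 genes, 8 had at least 10 CPM in every library and 3 of them at least 100 CPM, whereas 16 stayed below 10 CPM in every library and 8 below 2 CPM. In these bulk libraries, fewer cells of a type and less RNA per cell cannot be told apart. The data go against the name of the set for members at or near 0, such as Folr2 and Lyve1. Other members were present but low, such as Ly6c2 at 0.638 to 7.94 CPM and Ccr2 at 5.36 to 15.2 CPM. The abundant members were measured in libraries that carried all 14 alveolar macrophage markers.

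Levels of different genes were compared as deposited FPKM, which divides counts by gene length. In WT the order was led by Axl, a receptor kinase that binds dying cells through the bridging protein GAS6, with 367 and 367 FPKM, more than 99.3% of the tested genes. Selenop, which encodes the secreted selenium carrier selenoprotein P, followed with 211 and 224 FPKM. The next were Fcgr4, an activating receptor for IgG, with 107 and 99.9 FPKM, and Cd14, the co-receptor for bacterial lipopolysaccharide, with 70.3 and 77.5 FPKM. Mertk, a receptor kinase of the same family as AXL, had 35.0 and 40.6 FPKM, so that no pair of neighbours among these 5 genes overlapped between the WT libraries. Fcgr1, which encodes the high-affinity IgG receptor CD64, had 17.9 and 17.3 FPKM and overlapped the tetraspanin gene Cd81, at 12.5 and 19.2 FPKM. Ms4a6c, a membrane-spanning gene of the MS4A family carried by monocytes, was the eighth at 6.83 and 7.09 FPKM. Below it the 22 other genes had at most 3.18 FPKM in any WT library.

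**Figure D1:**
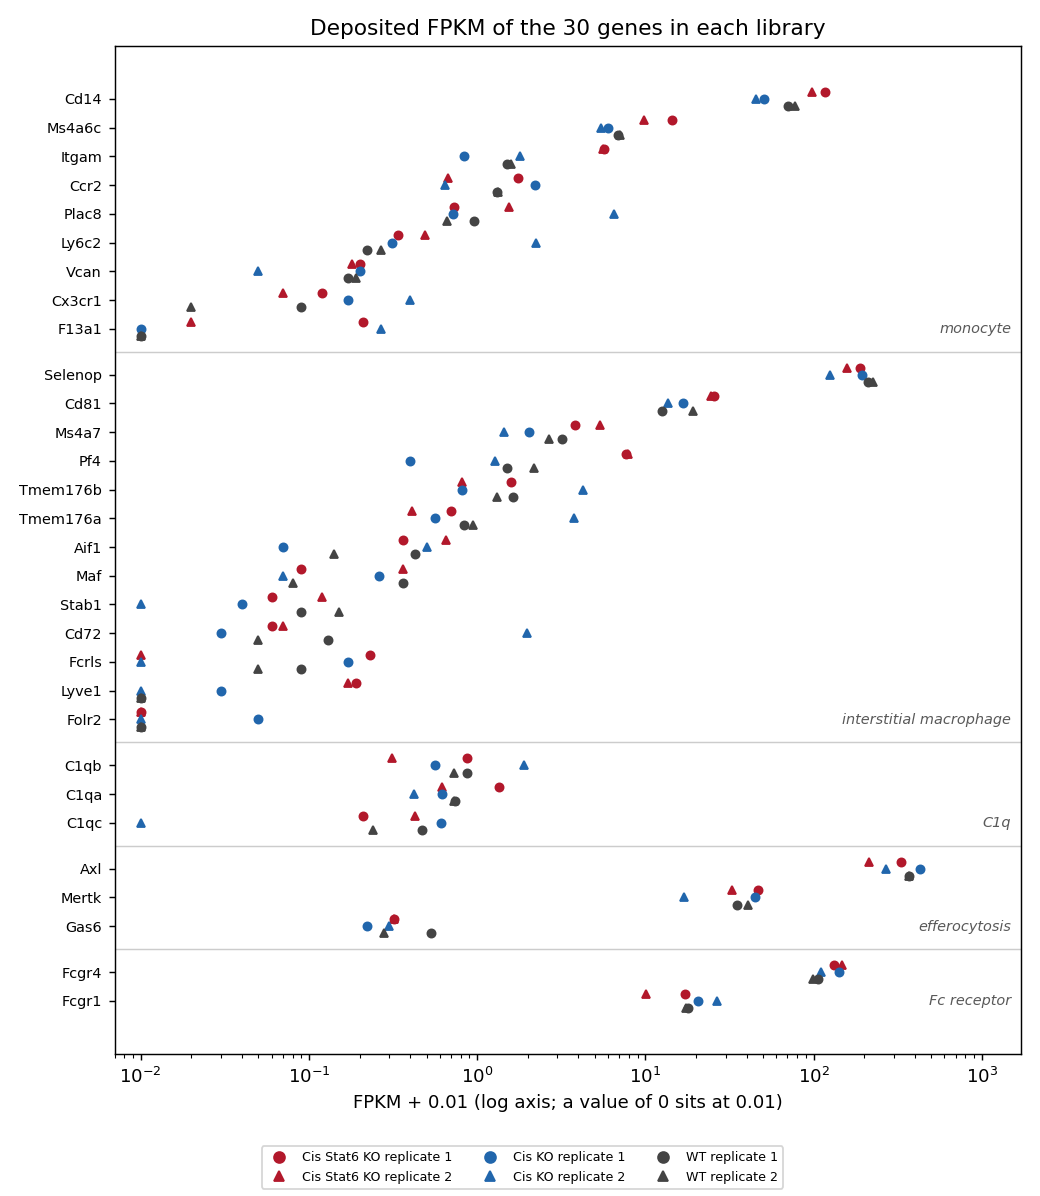
Deposited FPKM (horizontal log axis, with 0.01 added so that a value of 0 can be drawn) of the 30 genes in each of the 6 libraries, grouped by role and ordered by level within a role. Red marks Cis Stat6 KO, blue Cis KO and dark grey WT, circles are replicate 1 and triangles replicate 2. Axl, Selenop, Fcgr4 and Cd14 lie above 45 FPKM in every library, while Folr2, Lyve1, Fcrls, F13a1 and Stab1 lie below 0.3 FPKM in all of them.

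Among the monocyte genes, Ccr2, the receptor that draws monocytes out of the marrow, was low at 1.74 and 0.66 FPKM in Cis Stat6 KO, 2.20 and 0.63 FPKM in Cis KO and 1.30 and 1.32 FPKM in WT. Ly6c2, which encodes the Ly6C antigen of inflammatory monocytes, had 0.33 and 0.48 FPKM in Cis Stat6 KO, 0.30 and 2.23 FPKM in Cis KO and 0.21 and 0.26 FPKM in WT. The same low range held for Vcan, which encodes the proteoglycan versican, with 0.04 to 0.19 FPKM over the 6 libraries, and for Cx3cr1, the fractalkine receptor, with 0.01 to 0.39 FPKM.

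Of the interstitial macrophage genes, Folr2, a folate receptor, had 4 counts in Cis KO replicate 1 and 0 in the other 5 libraries, too few to be tested. A library of this depth would show 3 counts at 0.0433 to 0.0685 CPM, a bound that covers counting error only. Lyve1, the hyaluronan receptor that names the perivascular interstitial subset, had 38 and 27 counts in Cis Stat6 KO, 4 and 0 in Cis KO and 0 and 0 in WT. Stab1, a scavenger receptor, and Fcrls, an Fc receptor-like gene known from microglia, reached at most 0.14 and 0.22 FPKM in any library. Maf, a transcription factor of tissue macrophages, reached 0.35 FPKM, and Aif1, which encodes the calcium-binding protein IBA1, 0.64 FPKM. Each of these genes stayed at or below 0.64 FPKM, where Selenop had at least 125 FPKM in every library.

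The recognition protein of the classical complement pathway is built from 3 chains, whose genes C1qa, C1qb and C1qc lie within 18675 bases on chromosome 4. C1qa had 1.33 and 0.61 FPKM in Cis Stat6 KO, 0.61 and 0.41 FPKM in Cis KO and 0.73 and 0.72 FPKM in WT. C1qb had 0.86 and 0.30 FPKM in Cis Stat6 KO, 0.55 and 1.88 FPKM in Cis KO and 0.86 and 0.72 FPKM in WT. C1qc had 0.20 and 0.42 FPKM in Cis Stat6 KO, 0.60 and 0.00 FPKM in Cis KO and 0.46 and 0.23 FPKM in WT. The 3 chains were therefore all low, and in Cis KO the highest chain was C1qa in replicate 1 and C1qb in replicate 2.

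The efferocytosis receptors and their ligand were far apart. Gas6, the ligand that bridges AXL and MERTK to phosphatidylserine on dying cells, had 0.31 and 0.31 FPKM in Cis Stat6 KO, 0.21 and 0.29 FPKM in Cis KO and 0.52 and 0.27 FPKM in WT. Axl had 329 and 215 FPKM in Cis Stat6 KO, 429 and 269 FPKM in Cis KO and 367 and 367 FPKM in WT. The other bridging ligand of this receptor family, Pros1, was present at 54.9 and 31.4 FPKM in Cis Stat6 KO, 60.2 and 28.5 FPKM in Cis KO and 51.9 and 60.6 FPKM in WT. Tyro3, the remaining receptor of the family, had at most 0.14 FPKM. The cells thus carried RNA for Axl, Mertk and Pros1 in every library and little for Gas6 or Tyro3.

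Loss of CIS alone gave no call among the 29 tested genes when Cis KO was set against WT. A gene was called at a Benjamini-Hochberg adjusted p under 0.05 in edgeR's quasi-likelihood test, adjusted over all 16765 genes. In this comparison 0.274% of all tested genes were called. The targeted gene Cish was not called either (log2 fold change -3.70 ± 0.52 SE, adjusted p = 0.0624), nor was it in Cis Stat6 KO against WT (adjusted p = 0.0767). A member without a call is therefore not shown to be unchanged. At an unadjusted p under 0.05 there were 2 members, Ly6c2 higher and Cd14 lower, where 11.1% of all tested genes passed. DESeq2 called 0 members (3.44% of all genes) and limma-voom with quality weights called 0 (0.227% of all genes). The Cis KO libraries were both above the WT libraries for 4 members (21.4% of all genes) and both below for 6 members (25.9% of all genes), smaller shares than these backgrounds. The median log2 fold change over the members was 0.05, against -0.05 over all tested genes.

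The members with the smallest p-values in this comparison fell into those led by the Cis KO replicate 2 library and those in which both Cis KO libraries agreed. Ly6c2 had 0.84 and 7.94 CPM in Cis KO and 0.64 and 0.79 CPM in WT (log2 fold change 2.62 ± 1.04 SE, adjusted p = 0.437), counts that are uncertain because the Ly6 family has near-identical copies. Plac8, a cysteine-rich gene of myeloid and lymphoid cells, had 1.17 and 13.4 CPM in Cis KO and 1.62 and 1.11 CPM in WT (2.41 ± 1.08, adjusted p = 0.455). Cd72, an inhibitory co-receptor of B cells that some macrophages carry, had 0.06 and 8.70 CPM in Cis KO and 0.45 and 0.15 CPM in WT (3.88 ± 1.83, adjusted p = 0.461). In each of these genes replicate 2 alone was high. Cis KO replicate 1 lay just above both WT libraries for Ly6c2, between them for Plac8 and under both for Cd72.

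Cx3cr1 had 0.73 and 2.28 CPM in Cis KO and 0.38 and 0.04 CPM in WT (2.83 ± 1.28, adjusted p = 0.456), but the span given for this gene overlaps 8 other genes, among them Wdr48 at up to 48.1 CPM. F13a1, which encodes a subunit of clotting factor XIII and is carried by monocytes and tissue macrophages, had 0 and 100 counts in Cis KO and 0 in both WT libraries (adjusted p = 0.45). Against 3 counts over the WT group its level in Cis KO was at least 39.1-fold higher, all of it from replicate 2. Tmem176a and Tmem176b, which encode intracellular cation channel proteins of myeloid cells, showed the same library: Tmem176a had 2.16 and 18.5 CPM in Cis KO and 3.31 and 3.86 CPM in WT, and Tmem176b had 1.97 and 13.1 CPM in Cis KO and 4.14 and 3.33 CPM in WT. These 2 genes overlap head to head on opposite strands over 456 bases of chromosome 6. Use of strand in the counting was not given in the sources used here. If the counting ignored it, reads of the pair cannot be told apart in the overlap.

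Without the Cis KO replicate 2 library, the log2 fold change was 0.24 for Ly6c2, -0.22 for Plac8, -2.21 for Cd72 and 1.80 for Cx3cr1, none called. F13a1 was then at 0 counts in both genotypes. The log2 fold changes of Tmem176a and Tmem176b were 1.52 and 1.01 with all libraries, and -0.73 and -0.92 without this one. Those of C1qb and Fcgr1 were 0.81 and 0.56 with all libraries, and -0.60 and 0.16 without it. Cx3cr1 also rested on the WT libraries, since leaving out WT replicate 1 gave it a log2 fold change of 5.03. The same library was highest of the 6 for 9 of the 29 members (31.0%, against 30.8% of all tested genes). Those 9 were Ly6c2, Cx3cr1, Plac8, F13a1, Tmem176a, Tmem176b, Cd72, C1qb and Fcgr1. Some B cell and neutrophil markers were also highest in this library, and others, such as Jchain and Mmp8, were not. Summed erythroid and epithelial marker RNA was highest in it too, the epithelial at 202 CPM against 15.3 to 93.5 CPM elsewhere. Cd79a, a chain of the B cell receptor, had 0.00 and 24.7 CPM in Cis KO and 0.22 and 0.00 CPM in WT, and Ngp, a granule gene of neutrophil precursors, had 0.33 and 85.1 CPM in Cis KO and 0.57 and 0.15 CPM in WT. The part of B cell, neutrophil, erythroid or epithelial RNA in the values of Ly6c2, Plac8 and Cd72 was not tested.

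**Figure D2:**
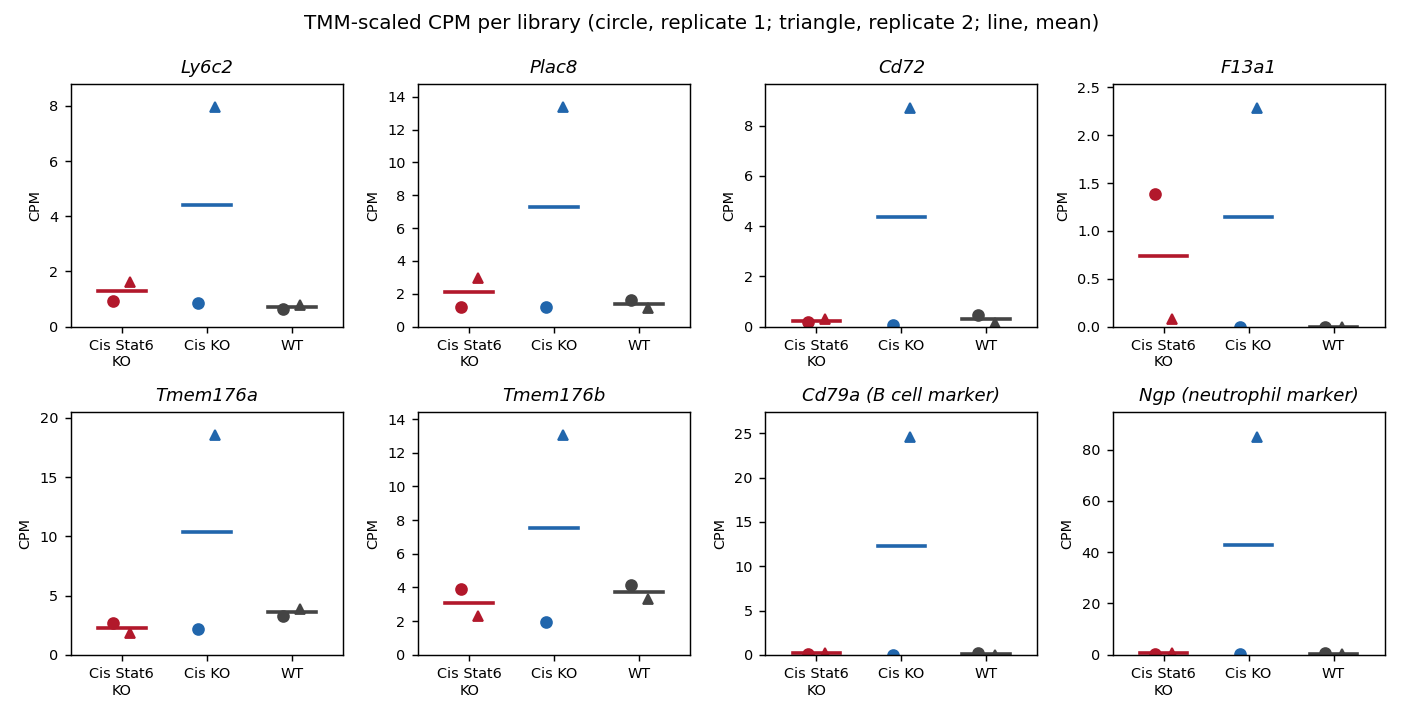
TMM-scaled CPM (vertical axes, each from 0) of 6 genes of the set and of 2 marker genes in the libraries of Cis Stat6 KO (red), Cis KO (blue) and WT (dark grey). Circles are replicate 1, triangles replicate 2 and lines the mean of the 2 libraries. In Cis KO, replicate 2 carries 7.94 CPM of Ly6c2 and replicate 1 carries 0.84 CPM, and the B cell marker Cd79a and the neutrophil marker Ngp are high in the same library.

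In the other members with small p-values the Cis KO libraries were alike. Cd14 had 90.0 and 102 CPM in Cis KO and 128 and 143 CPM in WT (log2 fold change -0.50 ± 0.17 SE, adjusted p = 0.428). Ms4a7, an MS4A gene of interstitial and brain-border macrophages, had 9.17 and 8.33 CPM in Cis KO and 15.0 and 12.7 CPM in WT (-0.66 ± 0.30, adjusted p = 0.456). Fcgr4 had 182 and 179 CPM in Cis KO and 142 and 134 CPM in WT (0.39 ± 0.19, adjusted p = 0.463). The libraries of the genotypes did not overlap for any of the 3 genes, with Cd14 and Ms4a7 lower and Fcgr4 higher in Cis KO, but no difference passed the test. Selenop, C1qa, Ms4a6c and Stab1 were also lower without overlap, and Cx3cr1, Ly6c2 and Fcgr1 higher.

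With STAT6 lost as well as CIS, 7 members stood higher in both Cis Stat6 KO libraries than in any other library: Itgam, Cd14, Ms4a6c, Ms4a7, Pf4, Cd81 and Lyve1. That is 7 of the 29 tested members, where 13.9% of all tested genes stood higher in this way, and the difference in share was not tested. Lyve1 had enough counts to be tested only through the Cis Stat6 KO libraries, so its place among the 7 followed from the filter on low counts. In edgeR's test over all 6 libraries none of them was called, against Cis KO or against WT. When Cis Stat6 KO was set against Cis KO, 0.358% of all tested genes were called and 0 members, and the members with an unadjusted p under 0.05 were 6 higher and 2 lower, where 18.3% of all genes passed. DESeq2 called 6 members (9.85% of all genes), with Itgam, Cd14, Ms4a6c, Ms4a7 and Pf4 higher and Cd72, which was high in Cis KO replicate 2 alone, lower, and limma-voom with quality weights called 0 (0.137% of all genes). Both Cis Stat6 KO libraries were above both Cis KO libraries for 9 members (27.9% of all genes) and below for 3 (22.5% of all genes). The share of members was above the background for an unadjusted p, for DESeq2 and for higher libraries, and below it for lower libraries, with no test of these differences in share.

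When Cis Stat6 KO was set against WT, edgeR called 0 members (0.131% of all genes), and 8 members, all higher in Cis Stat6 KO, had an unadjusted p under 0.05 (5.36% of all genes). DESeq2 called 1 member, Itgam (1.97% of all genes), and limma-voom with quality weights called 5, which were Itgam, Cd14, Ms4a6c, Pf4 and Lyve1 (2.8% of all genes). Both Cis Stat6 KO libraries were above both WT libraries for 10 members (23.3% of all genes) and below for 4 (23.5% of all genes). Here too the members held larger shares than all genes by every rule but edgeR's adjusted p and the lower libraries, a difference that was not tested. Lyve1, tested only through its Cis Stat6 KO counts, is among the members higher by libraries, by unadjusted p and by limma-voom. The members' median log2 fold change was 0.23 against Cis KO and 0.44 against WT, beside 0.05 and -0.00 over all tested genes. The comparisons against Cis KO and against WT share the Cis Stat6 KO libraries, so the values of each are given side by side and are not independent.

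The start regions of Itgam, Ms4a6c, Ms4a7 and Pf4, which stood higher in both Cis Stat6 KO libraries, are shown because the genotype lacks the transcription factor STAT6. That of Tmem176b is shown because it shares its start region with Tmem176a. Of the other members that stood higher in this way, Cd81 had a window without a match to any motif below, which is not shown. No window was used for Cd14 or Lyve1. Each window runs from 250 bases before to 50 bases after a RefSeq start site (RefSeq, GRCm38.p6), 5′ to 3′ on the gene's strand. Capitals mark matches, on either strand, to TTCNNNGAA (a STAT motif with a spacer of 3), TTCNNNNGAA (the STAT6 form, with a spacer of 4) or GAGGAA (a core of the motif of PU.1, the lineage factor of macrophages), and no 2 matches overlap in these windows.
Itgam start region, chr7:128062390-128062689, plus strand: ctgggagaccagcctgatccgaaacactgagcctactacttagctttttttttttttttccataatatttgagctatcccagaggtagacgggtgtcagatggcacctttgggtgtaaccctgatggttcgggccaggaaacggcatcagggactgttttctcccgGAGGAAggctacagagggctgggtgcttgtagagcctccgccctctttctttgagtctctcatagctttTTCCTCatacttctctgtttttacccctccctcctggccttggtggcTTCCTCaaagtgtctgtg
Ms4a6c start region, chr19:11469118-11469417, plus strand: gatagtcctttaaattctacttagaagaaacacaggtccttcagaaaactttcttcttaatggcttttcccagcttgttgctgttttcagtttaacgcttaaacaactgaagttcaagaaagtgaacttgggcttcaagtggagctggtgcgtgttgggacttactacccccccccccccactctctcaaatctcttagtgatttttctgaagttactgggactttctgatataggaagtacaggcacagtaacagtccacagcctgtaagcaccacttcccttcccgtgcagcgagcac
Ms4a7 start region, chr19:11336097-11336396, minus strand: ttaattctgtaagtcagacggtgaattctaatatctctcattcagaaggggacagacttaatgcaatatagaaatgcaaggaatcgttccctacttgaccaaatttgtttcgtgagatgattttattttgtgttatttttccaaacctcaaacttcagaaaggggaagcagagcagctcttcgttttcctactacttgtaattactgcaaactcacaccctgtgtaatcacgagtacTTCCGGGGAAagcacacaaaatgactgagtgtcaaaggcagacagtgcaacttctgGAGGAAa
Pf4 start region, chr5:90772185-90772484, plus strand: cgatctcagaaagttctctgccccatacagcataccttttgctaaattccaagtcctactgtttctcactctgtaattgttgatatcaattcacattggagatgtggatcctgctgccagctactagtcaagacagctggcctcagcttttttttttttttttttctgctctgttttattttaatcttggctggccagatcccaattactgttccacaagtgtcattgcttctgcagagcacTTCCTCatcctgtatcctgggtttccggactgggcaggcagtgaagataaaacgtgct
Tmem176b start region, chr6:48841325-48841624, minus strand: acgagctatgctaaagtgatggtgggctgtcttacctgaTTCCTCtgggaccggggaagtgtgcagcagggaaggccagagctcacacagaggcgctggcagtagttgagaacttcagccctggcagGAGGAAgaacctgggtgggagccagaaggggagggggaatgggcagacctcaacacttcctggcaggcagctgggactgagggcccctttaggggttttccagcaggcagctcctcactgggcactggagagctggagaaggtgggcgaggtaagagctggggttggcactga

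Windows were used for 26 of the 30 genes. TTCNNNNGAA lay in 2 of these 26 windows (7.69%, against 6.95% of 32851 windows of the same length over all genes), those of Ms4a7 and Selenop. TTCNNNGAA lay in 1 window (3.85% against 8.3%), that of Fcgr1. GAGGAA lay in 18 of 26 windows (69.2% against 28.3%). Of the 5 genes higher in both Cis Stat6 KO libraries that had a window, 0 held the STAT motif with a spacer of 3, 1 the form with a spacer of 4 and 3 the PU.1 core. These are matches of letters in a short window, which show neither binding nor its absence.

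Itgam (ENSMUSG00000030786, chromosome 7, 128062640 to 128118491, plus strand) encodes CD11b, the integrin chain that pairs with CD18 to form complement receptor 3 on monocytes, neutrophils and inflammatory macrophages and is scarce on resting alveolar macrophages. It had 29.2 and 33.4 CPM in Cis Stat6 KO, 4.30 and 11.7 CPM in Cis KO and 7.95 and 8.44 CPM in WT. Both double knockout libraries were thus well above the other 4, which overlapped each other. The log2 fold change was 1.97 ± 0.46 (SE) against Cis KO (adjusted p = 0.145) and 1.93 ± 0.46 against WT (adjusted p = 0.376). In a fit of the Cis Stat6 KO and WT libraries alone, its adjusted p against WT was 0.00365. Itgb2, which encodes the CD18 partner, had 588 and 488 FPKM in Cis Stat6 KO, 552 and 520 FPKM in Cis KO and 584 and 537 FPKM in WT.

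Cd14 had 207 and 201 CPM in Cis Stat6 KO, 90.0 and 102 CPM in Cis KO and 128 and 143 CPM in WT. The 3 genotypes did not overlap, with the double knockout on top and Cis KO at the bottom. The log2 fold change was 1.09 ± 0.17 (SE) against Cis KO (adjusted p = 0.0725) and 0.59 ± 0.17 against WT (adjusted p = 0.566). The adjusted p of 0.0725 was the smallest of any member in any of the 3 comparisons.

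Ms4a6c (ENSMUSG00000079419, chromosome 19, 11469366 to 11482192, plus strand) and Ms4a7 (ENSMUSG00000024672, chromosome 19, 11321039 to 11336144, minus strand) belong to the same gene cluster, 133222 bases apart. Ms4a6c had 30.3 and 24.1 CPM in Cis Stat6 KO, 12.5 and 14.4 CPM in Cis KO and 14.8 and 15.5 CPM in WT. Its log2 fold change was 1.02 ± 0.23 (SE) against Cis KO (adjusted p = 0.135) and 0.84 ± 0.23 against WT (adjusted p = 0.506). Ms4a6c has close paralogs and an overlapping antisense gene, so its counts are uncertain. Ms4a7, whose printed start region holds the STAT6 form of the motif, had 17.6 and 28.8 CPM in Cis Stat6 KO, 9.17 and 8.33 CPM in Cis KO and 15.0 and 12.7 CPM in WT. Its log2 fold change was 1.40 ± 0.30 against Cis KO (adjusted p = 0.129) and 0.75 ± 0.30 against WT (adjusted p = 0.894). The lower Cis Stat6 KO library of Ms4a7 lay close to the higher WT library, whereas those of Ms4a6c were further apart.

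Pf4 (ENSMUSG00000029373, chromosome 5, 90772435 to 90773383, plus strand) encodes the chemokine CXCL4, known from platelets and also made by tissue macrophages. It had 5.71 and 6.82 CPM in Cis Stat6 KO, 0.30 and 1.21 CPM in Cis KO and 1.17 and 1.68 CPM in WT. The log2 fold change was 3.06 ± 0.75 (SE) against Cis KO (adjusted p = 0.159) and 2.13 ± 0.72 against WT (adjusted p = 0.758). The 6 platelet markers summed to 0.0867 and 0.452 CPM in Cis Stat6 KO, 0.469 and 4.25 CPM in Cis KO and 0.345 and 0.482 CPM in WT. Gp9 was at 0 in both Cis Stat6 KO libraries and Itga2b and Ppbp in replicate 2. The part of platelet RNA in the values of Pf4 was not tested. In the fit of Cis Stat6 KO and WT alone the adjusted p of Pf4 was 0.0377.

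Cd81 (ENSMUSG00000037706, chromosome 7, 143052739 to 143067934, plus strand), a tetraspanin of many cell types, had 75.3 and 84.0 CPM in Cis Stat6 KO, 49.4 and 50.9 CPM in Cis KO and 38.0 and 59.1 CPM in WT. Its log2 fold change was 0.67 ± 0.25 (SE) against Cis KO (adjusted p = 0.241) and 0.72 ± 0.25 against WT (adjusted p = 0.781). Lyve1 remained at the edge of detection, with 0.55 and 0.55 CPM in Cis Stat6 KO, 0.06 and 0.00 CPM in Cis KO and 0 in both WT libraries. Against 3 counts over the WT group it was at least 23.2-fold higher in Cis Stat6 KO (adjusted p = 0.770).

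**Figure D3:**
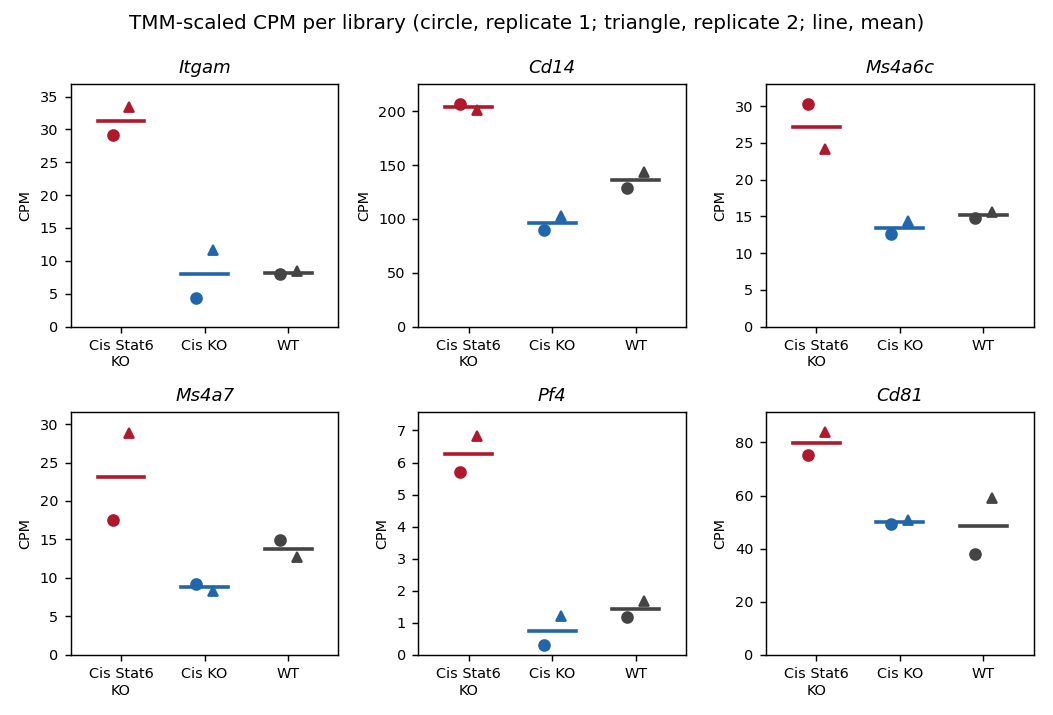
TMM-scaled CPM (vertical axes, each from 0) of Itgam, Cd14, Ms4a6c, Ms4a7, Pf4 and Cd81 in Cis Stat6 KO (red), Cis KO (blue) and WT (dark grey). Circles are replicate 1, triangles replicate 2 and lines the mean of the 2 libraries. Both Cis Stat6 KO libraries lie above the other 4 in every panel, by more than 2-fold for Itgam and Pf4, though no difference passed the adjusted test.

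Some neutrophil markers also stood higher in the Cis Stat6 KO libraries than in WT, and others did not. All 10 neutrophil markers had counts in every library, and they summed to 280 and 302 CPM in Cis Stat6 KO, 175 and 821 CPM in Cis KO and 244 and 236 CPM in WT. With Csf3r, Ltf and Mmp8 set aside, the other 7 summed to 72.5 and 178 CPM in Cis Stat6 KO. These 7 summed to 15.4 and 465 CPM in Cis KO and to 22.8 and 21.5 CPM in WT. Both Cis Stat6 KO libraries were above both WT libraries for 5 of the 10, which were S100a8, S100a9, Cxcr2, Retnlg and Mmp8, and below them for 1, Csf3r. Csf3r, the receptor for granulocyte colony-stimulating factor, had 64.2 and 53.9 CPM in Cis Stat6 KO, 61.8 and 61.0 CPM in Cis KO and 116 and 113 CPM in WT. S100a9 had 27.7 and 72.3 CPM in Cis Stat6 KO, 0.44 and 133 CPM in Cis KO and 1.35 and 1.24 CPM in WT. Cis KO replicate 2 was highest for S100a9 and had 11.7 CPM of Itgam and 102 CPM of Cd14, below both Cis Stat6 KO libraries. Of the 10 markers 2, Cxcr2 and Mmp8, stood higher in both Cis Stat6 KO libraries than in the other 4, as Itgam and Cd14 did. The remaining markers did not. The part of neutrophil RNA in the values of Itgam, Cd14 and the other 5 genes was not tested.

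Summed alveolar macrophage marker RNA also stood higher in the Cis Stat6 KO libraries, as did some of the markers. The 14 markers summed to 32794 and 42221 CPM in Cis Stat6 KO, 20137 and 16018 CPM in Cis KO and 16329 and 24514 CPM in WT. Chil3, which encodes the chitinase-like protein YM1, made up much of each sum, and the other 13 markers summed to 10522 and 11105 CPM in Cis Stat6 KO, 8570 and 9140 CPM in Cis KO and 7556 and 9509 CPM in WT. Both Cis Stat6 KO libraries were above the other 4 for 7 of the 14, namely Marco, Fabp4, Pparg, Itgax, Plet1, Chil3 and Atp6v0d2. Of all tested genes 13.9% stood higher in this way, and the difference in share was not tested. The other markers did not stand so. Cidec was lower than in WT, with 208 and 135 CPM in Cis Stat6 KO and 256 and 281 CPM in WT. Ear2 was lower than in Cis KO, with 1254 and 1103 CPM against 1894 and 2167 CPM. Marco, a scavenger receptor, had 1588 and 2248 CPM in Cis Stat6 KO, 636 and 889 CPM in Cis KO and 912 and 1259 CPM in WT. The part of alveolar macrophage RNA in the values of Itgam, Cd14 and the other 5 genes was not tested.

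Without the Cis KO replicate 2 library, Cis Stat6 KO was set against the Cis KO library left. The log2 fold change was 2.86 for Itgam, 4.38 for Pf4, 1.17 for Cd14 and 1.11 for Ms4a6c. Against WT the same fit gave 1.93 for Itgam and 2.12 for Pf4. Without Cis KO replicate 1 in its place, the values against Cis KO were 1.43, 2.38, 1.01 and 0.93 for the same genes. In that fit other members were lower in Cis Stat6 KO, such as Ly6c2 (-2.64), Cd72 (-5.19) and Fcgr1 (-1.19). In each of these fits the lone Cis KO library is assumed to vary like the libraries of the other genotypes.

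Other members went the other way or varied between the libraries of a genotype. Fcgr1 had 45.7 and 31.3 CPM in Cis Stat6 KO, 54.2 and 88.6 CPM in Cis KO and 48.9 and 48.0 CPM in WT, and was lower without overlap in the double knockout than in Cis KO (log2 fold change -0.89 ± 0.30 SE, adjusted p = 0.226). Without Cis KO replicate 2 the log2 fold change of Fcgr1 was -0.50 (adjusted p = 0.329). Tmem176a had 2.72 and 1.87 CPM in Cis Stat6 KO and 2.16 and 18.5 CPM in Cis KO (-2.17 ± 0.90, adjusted p = 0.273), and without Cis KO replicate 2 its log2 fold change was 0.083. Fcgr4 had 170 and 223 CPM in Cis Stat6 KO and 142 and 134 CPM in WT (0.51 ± 0.19, adjusted p = 0.833). F13a1 had 96 and 4 counts in Cis Stat6 KO and none in WT, at least 35.7-fold higher against 3 counts over the WT group, nearly all of it from replicate 1 (adjusted p = 0.985).

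The 2 most abundant members, Axl and Selenop, were lower without overlap in the double knockout than in WT, but not called. Axl had 1702 and 1291 CPM in Cis Stat6 KO, 2197 and 1749 CPM in Cis KO and 1949 and 1975 CPM in WT, a log2 difference between Cis Stat6 KO and WT of -0.39 ± 0.23 (SE, adjusted p = 1.00). Selenop had 552 and 535 CPM in Cis Stat6 KO, 563 and 458 CPM in Cis KO and 633 and 681 CPM in WT (-0.27 ± 0.19 between Cis Stat6 KO and WT, adjusted p = 1.00). Mertk had 208 and 169 CPM in Cis Stat6 KO, 198 and 94.9 CPM in Cis KO and 160 and 188 CPM in WT, and its genotypes overlapped.

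**Figure D4:**
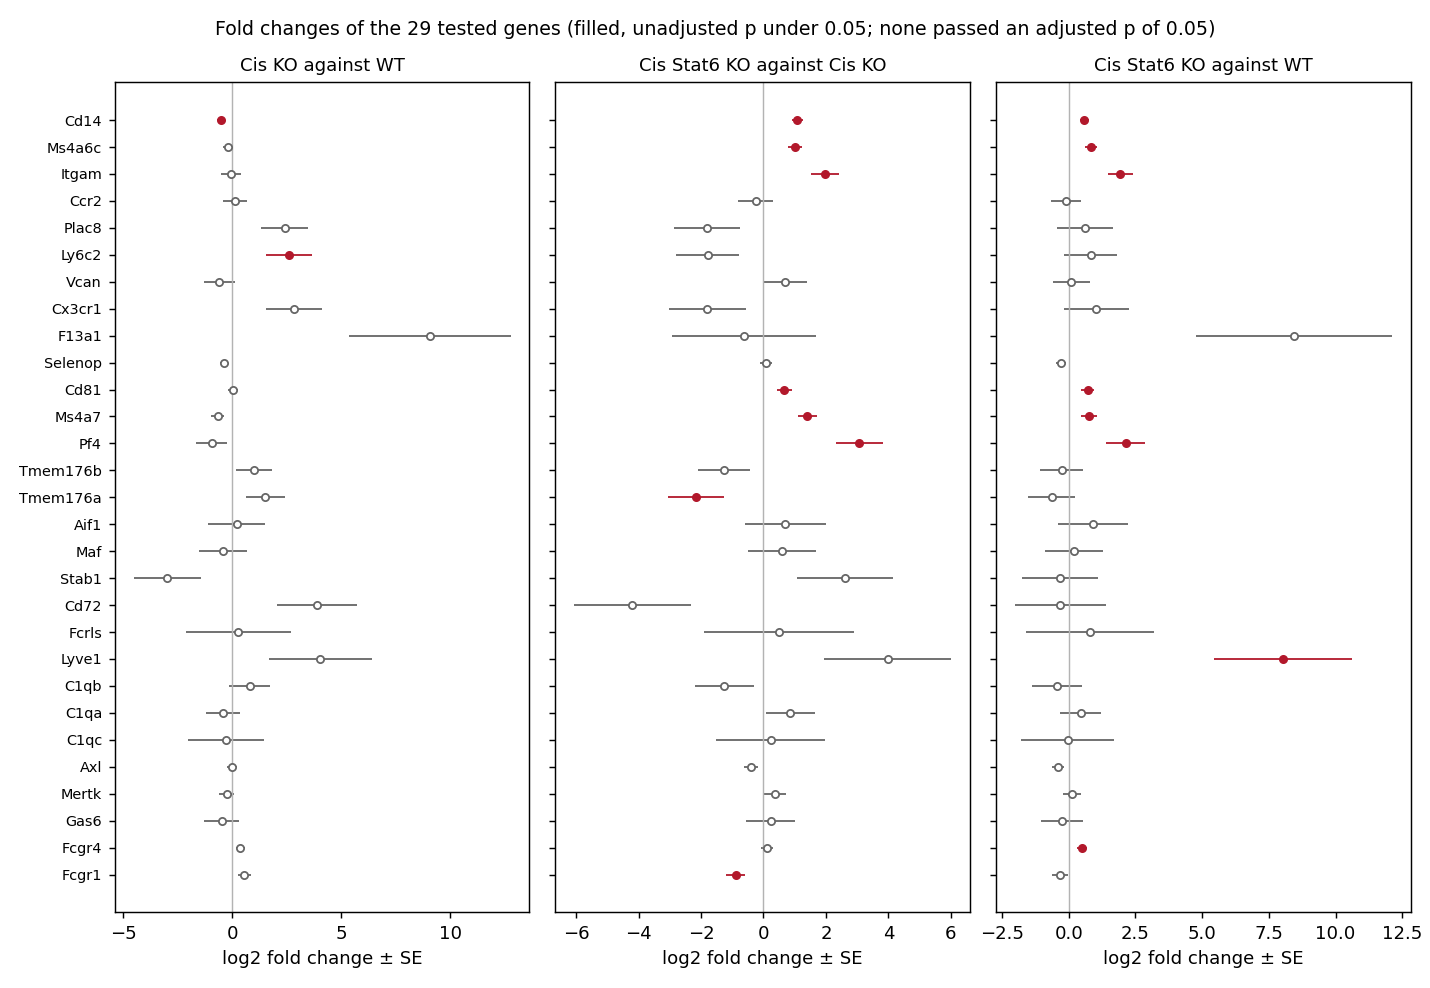
Log2 fold changes (horizontal axes, on different scales) with standard errors for the 29 tested genes in the 3 comparisons, each the first-named genotype over the second. Filled red points have an unadjusted p under 0.05 and open points do not, and no gene passed an adjusted p of 0.05. The fitted values of F13a1 and Lyve1 rest on groups at 0 counts and depend on the prior count, so only their bounds are given in the text.

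Other genes of the same biology were counted from fixed lists. Of 16 other monocyte genes, all tested, 0 were higher and 2 lower in Cis KO than in WT, and 2 were higher and 0 lower in Cis Stat6 KO than in Cis KO (0.274% and 0.358% of all tested genes called). Clec4e, which encodes the pattern receptor Mincle, fell in Cis KO, with 45.8 and 31.1 CPM against 308 and 298 CPM in WT (log2 fold change -2.98 ± 0.36 SE, adjusted p = 0.0441). It rose in Cis Stat6 KO relative to Cis KO, to 287 and 541 CPM (3.43 ± 0.36, adjusted p = 0.0308). Treml4, a TREM-like receptor of non-classical monocytes and some macrophages, fell in Cis KO, with 41.2 and 31.4 CPM against 121 and 116 CPM in WT (-1.70 ± 0.20, adjusted p = 0.0441). Gpr141, an orphan receptor, rose in Cis Stat6 KO relative to Cis KO, with 27.7 and 36.7 CPM against 7.87 and 5.80 CPM (2.24 ± 0.28, adjusted p = 0.0410). Gpr141 thus stood where Itgam did, highest in the double knockout, with 6.43 and 6.90 CPM in WT, whereas Clec4e, like Cd14, was lowest in Cis KO.

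Of 15 other complement and Fc receptor genes, 14 were tested and 1 was called in any comparison. Cfb, complement factor B of the alternative pathway, rose in Cis Stat6 KO relative to Cis KO, with 448 and 660 CPM against 106 and 124 CPM (log2 fold change 2.27 ± 0.27 SE, adjusted p = 0.0355), and had 389 and 527 CPM in WT. None of the 17 tested of 22 other interstitial and tissue macrophage genes, and none of the 15 tested of 20 other efferocytosis genes, was called by edgeR in any comparison. At an unadjusted p under 0.05 the interstitial list had 2, 7 and 7 genes and the efferocytosis list 1, 4 and 3 in Cis KO against WT, Cis Stat6 KO against Cis KO and Cis Stat6 KO against WT, where 11.1%, 18.3% and 5.36% of all tested genes passed. DESeq2 called 0, 4 and 3 genes of the interstitial list and 1, 2 and 2 of the efferocytosis list in the same comparisons, and 3.44%, 9.85% and 1.97% of all genes. In Cis Stat6 KO against WT no gene of the 4 lists was called by edgeR, although 4 of 16 genes of the monocyte list and 1 of 14 of the complement list passed at an unadjusted p under 0.05 (5.36% of all genes). There DESeq2 called 3, 3, 2 and 1 genes of the monocyte, interstitial, efferocytosis and complement lists (1.97% of all genes). The lists' shares were not tested against these backgrounds. Cd163, Vsig4 and Timd4, markers of resident tissue macrophages in other organs, had at most 0.01, 0.04 and 0.07 FPKM in any library.

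The distance between replicates is given as a description, with no test. In Cis KO, 19 of the 29 tested members differed by more than 2-fold between the replicates (65.5%, against 37.1% of all tested genes), in Cis Stat6 KO 9 (31.0% against 19.6%) and in WT 5 (17.2% against 16.1%). The common biological coefficient of variation over the table was 50.3%. Among the low members, Maf had 0.74 and 3.45 CPM in Cis Stat6 KO, 2.11 and 0.64 CPM in Cis KO and 3.04 and 0.64 CPM in WT, a wider gap within each genotype than between the genotypes' means (2.10, 1.37 and 1.84 CPM).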

How the data were processed

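RNA of untreated mouse lavage cells was sequenced in bulk, 2 libraries for each of Cis Stat6 KO, Cis KO and WT. For each library the authors deposited a raw count per gene and an FPKM value, which per the file headers is the count per gene length and library total, rounded to 0.01. The genome build was mm10, per the submitters' processing notes. The aligner, the counting tool and strandedness were not given in the sources used here. In each genotype at least 16.1% of the tested genes differed by more than 2-fold between the libraries, and each library counted as 1 sample.

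The tests on counts used edgeR 4.0.16 under R 4.3.3: TMM scaling (factors 0.863 to 1.08), filterByExpr (16765 of 40564 genes, 29 of the 30 members), glmQLFit and glmQLFTest with the genotype as factor over all 6 libraries (3 residual degrees of freedom), two-sided, with Benjamini-Hochberg adjustment over all tested genes and a threshold of 0.05. Standard errors are the size of the log2 fold change over the square root of F. CPM uses the TMM factors. FPKM was used to compare levels between genes, with no test. Against a group at 0, folds are bounds set against 3 counts over the group and cover counting error only. Alternatives were DESeq2 1.42.0, limma 3.58.1 (voom with quality weights), RLE factors, no filter, only the groups compared, a replicate block and leaving out each library. The edgeR steps were tested on simulated data.

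The members, lists and tests were chosen with earlier results of these data known. Every member is named. Values per library with fold change, standard error and adjusted p are given for the 8 members with the smallest p in each comparison, and of the other lists the called genes are named, at most 4 per list and comparison. No label says that the replicate numbers pair the libraries, so the main test did not pair them. The correlation of deviations between same-numbered libraries was -0.0317, -0.0653 and 0.0133 over the 3 pairs of genotypes. With 2 libraries per genotype, these values cannot show whether the libraries are paired.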

Additional observations from a re-analysis of the deposited data

How the results depend on the processing

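No member could lose a call under the 12 alternatives, since edgeR's main test called none. RLE factors also gave 0 called members in all 3 comparisons. With the replicate block, 0 members were called in Cis KO against WT, in Cis Stat6 KO against Cis KO and in Cis Stat6 KO against WT, among 24, 28 and 12 genes called in all. Without the filter on low counts, 3, 8 and 2 members were called in the same order, among 1021, 1840 and 385 genes, against 46, 60 and 22 with it. DESeq2 called 6 members in Cis Stat6 KO against Cis KO, among 1560 genes, and 1 in Cis Stat6 KO against WT, among 321, and it called 545 genes in Cis KO against WT with no member. Limma-voom with quality weights called 5 members in Cis Stat6 KO against WT, among 470 genes, and 38 and 23 genes with no member in the comparisons of Cis KO against WT and Cis Stat6 KO against Cis KO. With only the groups compared in the fit, 2 members were called in Cis Stat6 KO against WT, among 277 genes, and 6 and 5 genes with no member in the other comparisons. The cause of these differences was not tested. The number of genes tested is not given here for the fits without the filter, with only the groups compared or with a library left out. Their counts therefore have no share over all genes beside them.

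Leaving out each library in turn gave 0 to 12 called members in Cis KO against WT, 0 to 15 in Cis Stat6 KO against Cis KO and 0 to 2 in Cis Stat6 KO against WT. The highest counts came without Cis KO replicate 1, among 5349, 5999 and 307 genes. Without Cis KO replicate 2 the counts were 0, 4 and 2, among 188, 495 and 350 genes. Under these alternatives the log2 fold change ranged from -0.22 to 3.27 for Plac8 and from -2.21 to 4.87 for Cd72 in Cis KO against WT, and from -3.00 to 0.083 for Tmem176a in Cis Stat6 KO against Cis KO, each turning sign without Cis KO replicate 2. In Cis KO against WT it ranged from 0.24 to 3.46 for Ly6c2 and from 1.80 to 5.03 for Cx3cr1, and in Cis Stat6 KO against Cis KO from 2.38 to 4.38 for Pf4. Of 287 values of single members under the alternatives, 240 kept their direction and side of the threshold, 43 kept their direction and became called, 3 turned sign, and 1 came to 0 (F13a1 in Cis KO against WT, without Cis KO replicate 2). With 2 libraries per genotype and 3 residual degrees of freedom, precision rests on the spread between replicates (a common coefficient of variation of 50.3%), and for members near 0 also on depth, at least 50762354 counts per library.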
